A study of Mus musculus with 12 samples.

Results

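The 54 genes described here encode transcription factors that direct the formation of embryonic lineages. They were chosen by symbol, with no filter on level. The list holds GATA, SOX, T-box, forkhead and basic helix-loop-helix (bHLH) regulators with a few from related classes. It was drawn up with earlier results of these data known. The 54 are among 55404 gene models listed in either of 2 expression tables, and each was found once in both tables. By protein class they comprise 6 GATA zinc fingers, 10 SOX, 9 T-box, 8 forkhead and 12 bHLH factors, and 9 factors of other classes (Meox1, Meox2, Wt1, Zic1, Zic2, Zic4, Zic5, Tfap2a and Tfap2b).

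The data are RNA-seq of mouse oocytes taken from the ovary, with 12 libraries in 6 groups of 2. PRC2 control oocytes (EedF/+; Ddx4-Cre) and PRC2 conditional knockout (cKO) oocytes (EedF/-; Ddx4-Cre) were sampled as non-growing oocytes at postnatal day 6 and as growing oocytes at postnatal day 7. PRC1 control oocytes (labelled Ring1-/-; Rnf2F/+; Ddx4-Cre) and PRC1 cKO oocytes (labelled Ring1-/-; Ring1F/-; Ddx4-Cre) were growing oocytes at postnatal day 7. By their labels, all 6 groups carry Ddx4-Cre, which recombines in germ cells, and both PRC1 groups lack Ring1. In the PRC1 cKO label both loci read Ring1, and whether the floxed one is Rnf2 is not stated, so the group keeps its label here. Values are in TPM, a length-scaled measure of transcript abundance whose total is 1000000 per library. The sequencing depth is therefore unknown. Non-growing and growing oocytes differ in age by 1 day as well as in stage. Whether replicate libraries come from different animals is not stated in the labels, so p-values measure only the spread between these libraries, which may be technical.

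Polycomb repressive complexes keep developmental regulator genes silent in cells that do not use them. PRC2, of which Eed is a core subunit, methylates histone tails, and PRC1, whose catalytic subunit is Ring1 or Rnf2, ubiquitinates histones. Genes of the classes described here, with CG-rich promoters, are well-known Polycomb targets in mouse embryonic stem cells. Most of them act in somatic lineages such as mesoderm, endoderm, neural tube and neural crest, and few have a known role in the oocyte.

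The sequences around the start sites of 4 of these genes, picked by their expression results, are shown for description only. Zic5 and Gata2 had the smallest adjusted p in the PRC1 cKO, Tbx18 the smallest among the genes of lower level, and Gata1 was among the genes that changed with growth. Each window holds 250 bases before and 50 bases after the annotated start, from RefSeq on GRCm38.p6. The windows are printed 5′ to 3′ on the gene's strand, in lower case with each CG in capitals. CG reads the same on both strands, and no 2 matches overlap.
Zic5: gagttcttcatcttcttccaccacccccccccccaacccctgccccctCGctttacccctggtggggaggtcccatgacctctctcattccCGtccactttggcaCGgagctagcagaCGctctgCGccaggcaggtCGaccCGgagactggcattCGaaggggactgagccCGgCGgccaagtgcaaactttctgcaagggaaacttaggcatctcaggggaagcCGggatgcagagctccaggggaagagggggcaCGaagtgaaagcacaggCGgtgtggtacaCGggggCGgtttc
Gata2: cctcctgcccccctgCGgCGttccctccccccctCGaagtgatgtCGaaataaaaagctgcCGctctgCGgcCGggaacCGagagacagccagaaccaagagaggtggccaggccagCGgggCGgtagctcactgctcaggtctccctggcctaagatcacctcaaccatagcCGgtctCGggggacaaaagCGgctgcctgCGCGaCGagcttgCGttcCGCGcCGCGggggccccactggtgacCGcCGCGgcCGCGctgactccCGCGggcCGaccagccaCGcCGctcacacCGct
Tbx18: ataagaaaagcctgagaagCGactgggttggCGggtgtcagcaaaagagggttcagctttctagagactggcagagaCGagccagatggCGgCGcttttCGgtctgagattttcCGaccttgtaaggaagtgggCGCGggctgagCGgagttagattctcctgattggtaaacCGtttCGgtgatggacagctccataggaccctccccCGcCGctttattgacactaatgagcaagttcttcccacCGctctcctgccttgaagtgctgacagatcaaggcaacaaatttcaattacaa
Gata1: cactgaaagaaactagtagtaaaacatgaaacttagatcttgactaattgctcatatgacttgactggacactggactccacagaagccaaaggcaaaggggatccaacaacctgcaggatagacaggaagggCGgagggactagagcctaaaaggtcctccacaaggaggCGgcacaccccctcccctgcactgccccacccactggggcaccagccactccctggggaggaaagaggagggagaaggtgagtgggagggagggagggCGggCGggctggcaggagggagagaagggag
The Zic5 window (chromosome 14, 122465609 to 122465908, minus strand) held 15 CG and the Tbx18 window (chromosome 9, 87731211 to 87731510, minus strand) also held 15. Among the 14771 promoters of protein-coding genes with such a window, 53.0% had at least as many. The Gata2 window (chromosome 6, 88193641 to 88193940, plus strand) held 32, a number reached by 13.5% of promoters. The Gata1 window (chromosome X, 7967861 to 7968160, minus strand) held 4, a number reached by 81.2%. It lies at the start of the principal transcript, while the Gata1 gene model, with coordinates given below, begins upstream of the window. Which start the oocytes use was not tested. Of the 54 genes, 32 had a window within 500 bases of the start of the principal transcript. This share is too small for a check over the whole set, which is void.

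Most of these regulators were at or near 0 in every oocyte library. Sox14, Foxl1, Hand1 and Zic1 were listed at 0 in all 12 libraries, 21 of the 54 genes stayed under 0.1 TPM in all 12, and 43 stayed under 1 TPM. In growing controls the highest levels belonged to Tbx4, a limb and lung T-box factor, and Gata1, the erythroid GATA factor. Over all growing oocyte libraries Tbx4 ran from 4.44 to 11.28 TPM and Gata1 from 2.63 to 5.05 TPM. Those ranges span both tables, which were normalized separately. Without Tbx4 and Gata1 the other 52 regulators together summed to 3.27 and 4.77 TPM in PRC1 control libraries, and 2.61 to 4.8 TPM in the 8 PRC2-table libraries. In the PRC1 cKO libraries they reached 27.12 and 17.18 TPM. In bulk libraries, fewer cells of a type and less RNA per cell cannot be told apart.

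**Figure D1:**
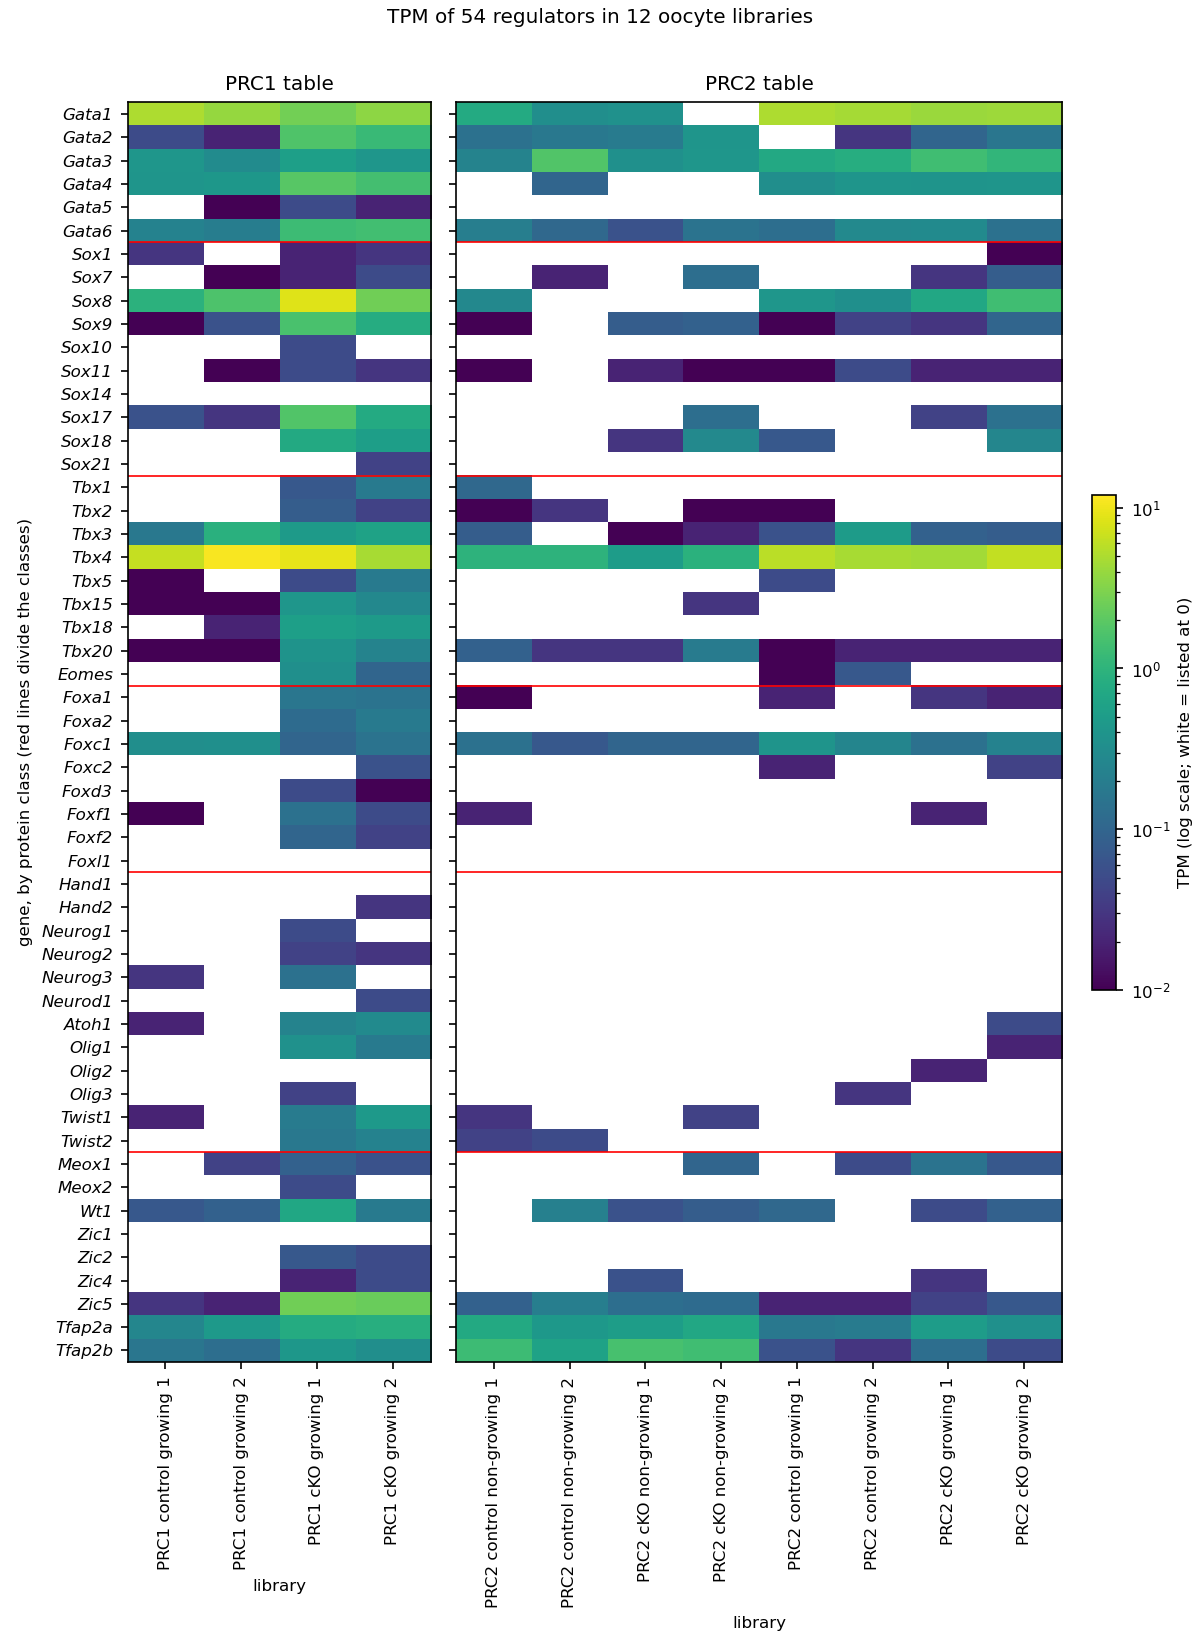
TPM (colour, log scale, white for a value listed at 0) of the 54 regulators, one row per gene ordered by protein class, in the 12 libraries of the 2 tables. The PRC1 cKO columns hold colour in many rows that are white or dark in the PRC1 control and in the PRC2 table, with the summed level without Gata1 and Tbx4 at 27.12 and 17.18 TPM against 3.27 and 4.77 TPM.

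The number of regulators detected followed the same pattern by library. At 0.1 TPM or more, 10 and 10 of the 54 were detected in the PRC1 control libraries and 29 and 28 in the PRC1 cKO libraries. In the PRC2 table, 8 to 13 were detected in each library. The share of all protein-coding genes at that level was 62.2% and 63.6% in the PRC1 control and 75.4% and 74% in the PRC1 cKO, against 61.3% to 64% in the PRC2 table. The wider detection in the PRC1 cKO libraries was thus not limited to these regulators. At 1 TPM or more, 2 and 3 regulators were detected in the PRC1 control and 9 and 7 in the PRC1 cKO.

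**Figure D2:**
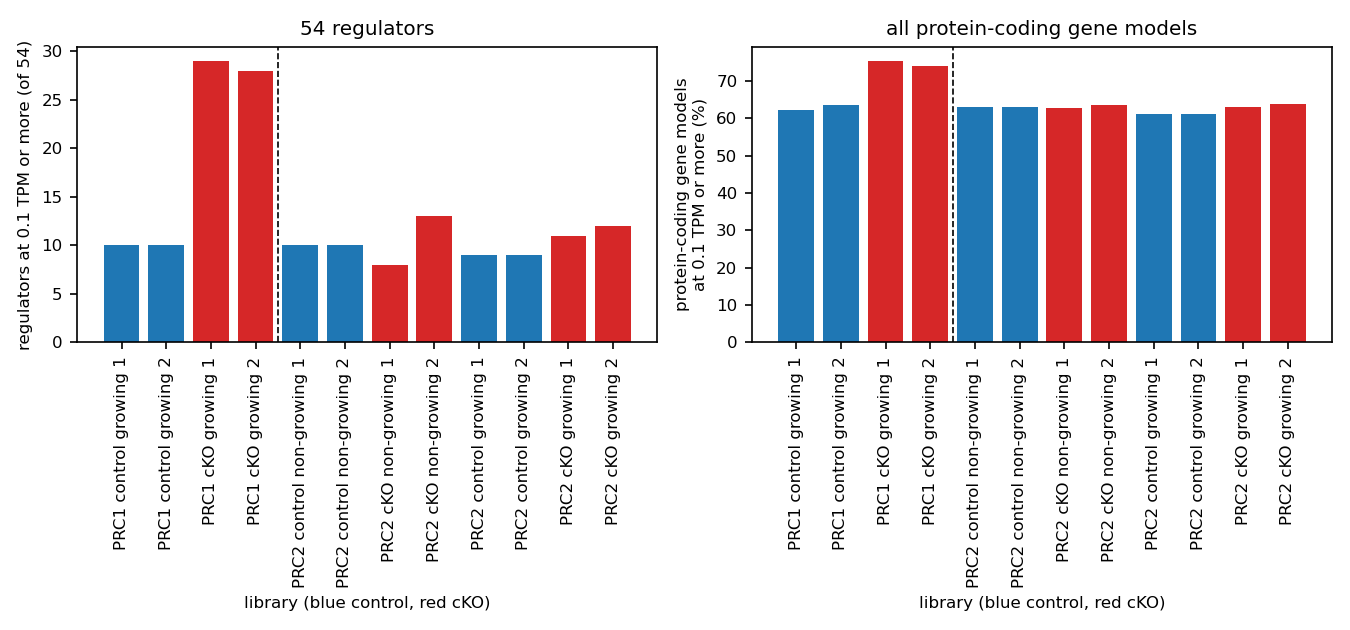
Left, number of the 54 regulators at 0.1 TPM or more in each library; right, percentage of all protein-coding gene models at 0.1 TPM or more (blue control, red cKO; the dashed line divides the tables). The PRC1 cKO libraries hold 29 and 28 regulators against 10 and 10 in their controls, and 75.4% and 74% of all coding genes against 62.2% and 63.6%.

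The libraries matched their oocyte label, since all 13 oocyte markers examined were at 1 TPM or more in every library. Eed checked the PRC2 labels: it measured 88.85 and 90.47 TPM in the controls against 12.08 and 10.32 TPM in the cKO non-growing oocytes, and at 62.27 and 60.45 against 9.64 and 10.1 TPM in growing oocytes. Its log2 fold changes were -2.90 (limma adjusted p = 0.000252) and -2.52 (limma adjusted p = 0.0014). Rnf2 measured 59.19 and 53.81 TPM in the PRC1 controls against 87.75 and 61.42 TPM in the PRC1 cKO (log2 fold change 0.37, limma adjusted p = 0.197), so the gene's TPM does not check that label. Ring1 measured 0 and 0 TPM in the PRC1 controls against 0.01 and 0.02 TPM in the PRC1 cKO.

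PRC1 cKO was compared with PRC1 control in growing oocytes, and by their labels both groups lack Ring1. Loss of PRC1 itself is taken from the label. Zic5 and the GATA factors Gata2, Gata6 and Gata4 rose in the PRC1 cKO, from levels at or under 0.43 TPM to between 1.21 and 2.59 TPM. Genes were tested where 1 TPM was reached in at least 2 libraries of the table, on log2(TPM + 1), a scale that understates the change of low genes. Adjusted p-values are from limma with Benjamini-Hochberg adjustment over all 14941 tested genes, and a gene was called at an adjusted p under 0.05. Only 7 of the 54 regulators could be tested, and 4 were called higher and 0 lower. Of all tested genes, 41.3% were called higher and 6.45% lower, and the median change was 0.55. All 4 called regulators reached 1 TPM in the PRC1 cKO libraries alone, so they had to differ to be tested, and their count says nothing about the 54 as a set. By class, 3 of 4 tested GATA genes, 0 of 1 SOX gene, 0 of 1 T-box gene and 1 of 1 gene in other classes were called, and no forkhead or bHLH gene could be tested.

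Zic5 (chromosome 14, 122456795 to 122465677, GRCm38), a zinc finger factor of neural tube and neural crest formation, measured 0.03 and 0.02 TPM in the PRC1 controls. Its level in the PRC1 cKO was 2.59 and 2.36 TPM. Both cKO libraries lay far above both controls, and the log2 fold change was 1.76 (SE 0.15, limma adjusted p = 0.00246). In no library of the PRC2 table did Zic5 exceed 0.21 TPM.

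Gata2 (chromosome 6, 88193891 to 88207032), which maintains blood stem and progenitor cells, measured 0.05 and 0.02 TPM in the PRC1 controls. The cKO libraries held 1.7 and 1.21 TPM. The groups did not overlap, and the log2 fold change was 1.24 (SE 0.17, limma adjusted p = 0.00508). Gata6 (chromosome 18), a factor of primitive endoderm and heart, measured 0.23 and 0.2 TPM in the PRC1 controls. In the PRC1 cKO it measured 1.3 and 1.4 TPM, a ratio of means of 6.28 and a log2 change of 0.95 (SE 0.14, limma adjusted p = 0.00667). The 2 libraries of each group were close together. Gata4 (chromosome 14, 63198922 to 63271692), a factor of heart and of gonadal somatic cells, measured 0.4 and 0.43 TPM in the PRC1 controls. Its level in the PRC1 cKO was 1.88 and 1.43 TPM, a ratio of means of 3.99 and a log2 change of 0.90 (SE 0.17, limma adjusted p = 0.012). Without PRC1 control replicate 1 the adjusted p of Gata6 was 0.0506 and that of Gata4 was 0.0836, and without control replicate 2 that of Gata4 was 0.0679 (limma). Under quantile normalization the changes of Gata6 and Gata4 were -0.019 and -0.06 and the change of Gata2 was 0.27 (limma adjusted p = 0.225), while Zic5 stayed called.

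Gata1 was not called, and Gata3 and Gata5 were below the filter. Gata1 measured 5.04 and 3.86 TPM in the PRC1 controls against 2.63 and 3.64 TPM in the PRC1 cKO. Both cKO libraries were below both controls, but the change of -0.40 (SE 0.25) did not pass (limma adjusted p = 0.24). It passed under trimmed-mean scaling (-0.97, limma adjusted p = 0.0382), which brought the median of all genes to -0.07. That scaling changed the split of all tested genes to 21.2% called higher and 23.5% lower, and it left Zic5, Gata2, Gata6 and Gata4 called higher. Gata3, a T cell and trophoblast factor, measured 0.42 and 0.31 TPM in the PRC1 controls against 0.54 and 0.41 TPM in the PRC1 cKO, so its groups overlapped. Gata5, an endoderm and heart factor, did not exceed 0.05 TPM.

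**Figure D3:**
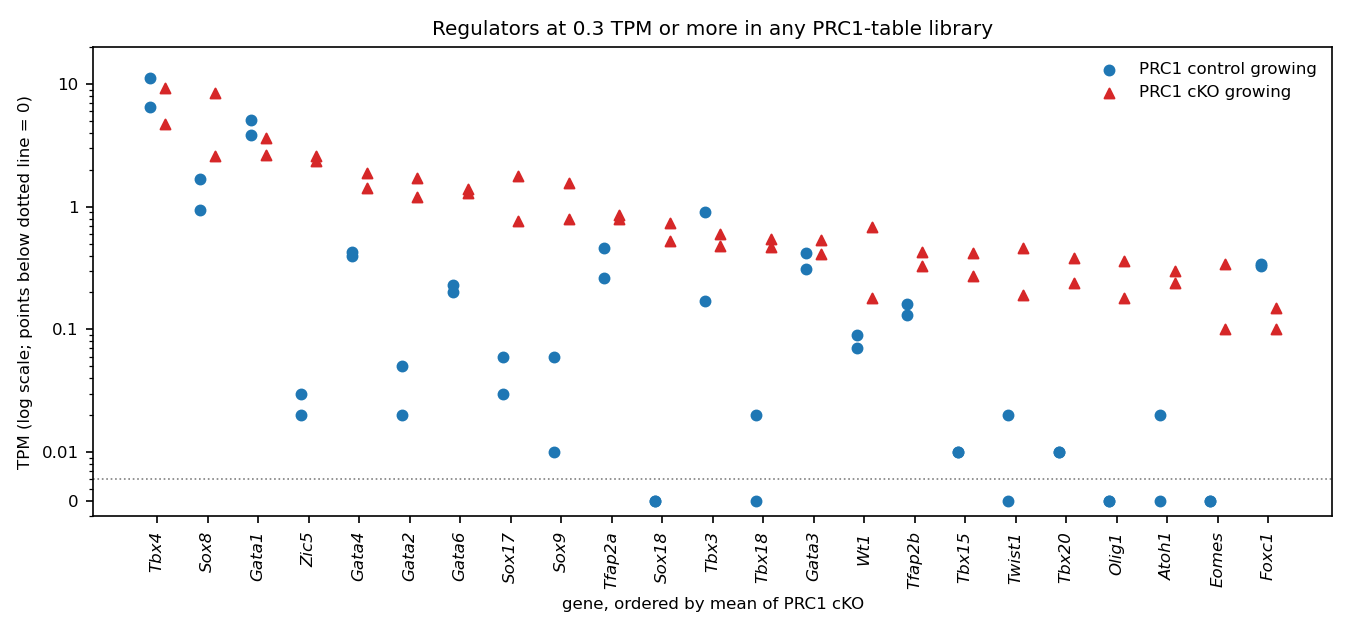
TPM (log scale; points under the dotted line are 0) of the regulators that reached 0.3 TPM in any PRC1-table library, with blue circles for the 2 PRC1 control and red triangles for the 2 PRC1 cKO libraries. Zic5 and Gata2 sit under 0.1 TPM in both controls and above 1 TPM in both cKO libraries, while the circles and triangles of Tbx4, Tbx3 and Gata3 interleave.

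Sox8, the SOX gene of highest level, measured 0.94 and 1.67 TPM in the PRC1 controls. The cKO libraries held 8.46 and 2.58 TPM. The cKO libraries were both higher but far apart, and the log2 change of 1.35 (SE 0.50) was not called (limma adjusted p = 0.0777). Without PRC1 cKO replicate 2 it was 2.06 and called (limma adjusted p = 0.0208), and without cKO replicate 1 it was 0.65 (limma adjusted p = 0.163). Sox8, a relative of Sox9 in testis and neural crest, overlaps the antisense gene Cerox1, which measured 0.26 and 0.43 TPM in the controls against 11.19 and 12.1 TPM in the PRC1 cKO. No source used here states whether counting used strand, so reads of the 2 genes cannot be told apart.

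Further SOX genes were nearly undetected in the PRC1 control and measurable in the cKO. Sox9, which drives testis and cartilage differentiation, measured 0.01 and 0.06 TPM in the controls against 1.55 and 0.8 TPM in the cKO. Sox17, an endoderm and arterial factor, measured 0.06 and 0.03 TPM in the controls against 1.77 and 0.77 TPM in the cKO. Sox18, a factor of lymphatic endothelium, was listed at 0 in both controls and at 0.74 and 0.53 TPM in cKO. All 3 were higher in both cKO libraries than in either control, at levels that stayed under 2 TPM. The related Sox7 did not exceed 0.05 TPM in this table, nor did the neural genes Sox1, Sox11 and Sox21 or the neural crest gene Sox10.

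Tbx4 (chromosome 11, 85886422 to 85916097), the regulator of highest level, measured 6.44 and 11.28 TPM in the PRC1 controls against 9.31 and 4.76 TPM in the PRC1 cKO. The groups overlapped (log2 fold change -0.31, SE 0.40, limma adjusted p = 0.552), and its sign changed when control replicate 2 (0.05) or cKO replicate 2 (0.11) was left out. Among the T-box genes of low level, Tbx18, which marks epicardium and ureteric mesenchyme, measured 0 and 0.02 TPM in the controls against 0.55 and 0.47 TPM in the cKO. Tbx15, a factor of skeletal and dermal patterning, measured 0.01 and 0.01 TPM in the controls against 0.42 and 0.27 TPM in the cKO. These libraries did not overlap between groups. Tbx20, a heart factor, measured 0.01 and 0.01 TPM in the controls against 0.38 and 0.24 TPM in the cKO. Eomes, a trophoblast and mesendoderm factor, was listed at 0 in both controls and at 0.34 and 0.1 TPM in cKO. Tbx1, Tbx2 and Tbx5 were also higher in both cKO libraries, without exceeding 0.18 TPM. Tbx3 measured 0.17 and 0.9 TPM in the controls against 0.48 and 0.6 TPM in the cKO, which overlap.

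The forkhead and bHLH genes were the lowest of these classes. Foxc1, a factor of eye and vessel mesenchyme, was the forkhead gene of highest level in the control, at 0.33 and 0.34 TPM against 0.1 and 0.15 TPM in the PRC1 cKO. It was lower in both cKO libraries. The endoderm factor Foxa1 was listed at 0 in both controls and at 0.16 and 0.15 TPM in cKO, and Foxa2 was at 0 and 0 against 0.12 and 0.18 TPM. Foxd3, Foxf1 and Foxf2 were higher in both cKO libraries, at no more than 0.14 TPM.

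The 12 bHLH genes summed to 0.07 and 0 TPM in the PRC1 control and 1.23 and 1.28 TPM in the PRC1 cKO. Twist1, a mesenchyme factor, measured 0.02 and 0 TPM in the controls against 0.19 and 0.46 TPM in the cKO. Its relative Twist2 was at 0 and 0 against 0.17 and 0.23 TPM. The cKO libraries were higher for both genes, and also for the 2 that follow. Atoh1, which specifies inner ear hair cells and cerebellar granule neurons, measured 0.02 and 0 TPM in the controls against 0.24 and 0.3 TPM in the cKO. Olig1, of the oligodendrocyte lineage, was at 0 and 0 against 0.36 and 0.18 TPM. Of the neural factors, Neurog2 did not exceed 0.04 TPM, Neurod1 and Neurog1 did not exceed 0.05 TPM, and Neurog3 reached 0.14 TPM in 1 cKO library. Hand2 and Olig3 did not exceed 0.04 TPM in this table, and Olig2 was listed at 0 in it.

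Outside these classes, the neural crest factors of the AP-2 family were already present in the control. Tfap2a measured 0.26 and 0.46 TPM in the PRC1 controls against 0.79 and 0.85 TPM in the cKO, and Tfap2b was at 0.16 and 0.13 against 0.43 and 0.33 TPM. Wt1, a kidney and gonad factor, measured 0.07 and 0.09 TPM in the controls against 0.68 and 0.18 TPM in the cKO. These 3 genes were higher in both cKO libraries. Zic2 and Zic4, relatives of Zic5, reached 0.07 TPM at most, as against 2.59 TPM for Zic5. Meox1, a somite factor, did not exceed 0.09 TPM, and its relative Meox2 did not exceed 0.05 TPM.

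Counting all 54 genes without any filter on level, 34 were higher in both PRC1 cKO libraries than in either control, 2 were lower (Gata1 and Foxc1), 13 overlapped and 5 were listed at 0 in all 4 libraries. Of all 21897 protein-coding gene models, 53.9% were higher and 8.93% lower by the same rule. On unscaled TPM the members' count thus lies near the background of the table. By class, 4 of 6 GATA, 6 of 10 SOX, 7 of 9 T-box, 5 of 8 forkhead, 5 of 12 bHLH and 7 of 9 other genes were higher. Of the 34, 13 were listed at 0 in both controls. After trimmed-mean scaling 33 of the 54 were higher and 3 lower (Gata1, Foxc1 and Tbx4), beside 34.8% and 25.8% of all coding genes. The comparison with the background thus depends on the scaling, and the genes were chosen with earlier results of these data known.

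Of the 44 regulators at or under 0.1 TPM in both PRC1 control libraries, 15 exceeded 0.1 TPM in both cKO libraries: Gata2, Sox9, Sox17, Sox18, Tbx15, Tbx18, Tbx20, Foxa1, Foxa2, Atoh1, Olig1, Twist1, Twist2, Wt1 and Zic5. Of all 7696 coding genes that low in both controls, 24% did so. With the filter lowered to 0.1 TPM in 2 libraries, a setting chosen after seeing the data, 26 regulators were tested, and 13 were called higher and 0 lower (limma). Of the 22258 genes tested at that setting, 34.8% were called higher and 4.09% lower. The calls added were Sox9 (1.05, limma adjusted p = 0.0193), Sox17 (1.08, limma adjusted p = 0.0273), Sox18, Tbx15, Tbx18, Tbx20, Atoh1, Olig1 and Twist2. All 9 passed that filter through the cKO libraries alone.

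Markers of ovarian somatic cells were measured in the same libraries, because Gata4, Gata6 and Wt1 are also expressed in mouse granulosa cells and Sox17 and Sox18 in endothelium. The 14 granulosa markers summed to 11.17 and 14.11 TPM in the PRC1 control and 44.98 and 33.31 TPM in the PRC1 cKO, and 11 of them were higher in both cKO libraries. Of the 6 that could be tested, 4 were called higher by limma (Inha, Inhba, Kitl and Cyp19a1). Inha, an inhibin subunit, measured 0.59 and 2.68 TPM in the controls against 17.22 and 10.89 TPM in the cKO. The defining granulosa gene Foxl2 was listed at 0 in both controls and at 0.19 and 0.14 TPM in the cKO, and Amh was at 0 and 0.05 against 0.24 and 0.04 TPM. The 8 endothelial markers summed to 7.56 and 6.47 TPM in the controls against 17.68 and 17.87 TPM in the cKO, 5 of them higher and 4 of 5 tested called higher by limma (Tie1, Cldn5, Egfl7 and Tek). Tie1, an endothelial receptor, measured 0.09 and 0.25 TPM in the controls against 5.04 and 3.69 TPM in the cKO, and Cldn5, a tight junction protein, 0.11 and 0.15 against 3.54 and 2.63 TPM. The defining gene Cdh5 was at 0.01 and 0 against 0.1 and 0.01 TPM. Emcn was at 0 and 0 against 0.02 and 0 TPM. The 11 stromal markers summed to 2.51 and 1.67 TPM in the controls against 2.52 and 4.94 TPM in the cKO, 8 of them higher and 1 lower. The 7 immune markers summed to 2.61 and 2.37 against 4.24 and 2.93 TPM, 4 of them higher. The 6 surface epithelial markers summed to 0.62 and 0.57 against 13.5 and 8.03 TPM, 3 of them higher and 1 lower, with Krt7, the 1 tested and called higher by limma, at 0.13 and 0 against 12.08 and 7.15 TPM. The 13 oocyte markers summed to 20127.5 and 21643.6 TPM in the controls against 15939.55 and 14894.83 TPM in the cKO. Of these, 5 were higher and 6 lower in both cKO libraries, and 4 were called higher and 5 lower by limma. By the same rules, 53.9% of all coding genes were higher and 8.93% lower, and 41.3% and 6.45% of tested genes were called. The endothelial, immune and surface epithelial counts of higher genes lie near the 53.9%. Tie1, Cldn5 and Krt7 reached 1 TPM in the PRC1 cKO libraries alone, so nothing is read from the counts of calls. The part of other cell types in the higher regulator levels was not tested.

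**Figure D4:**
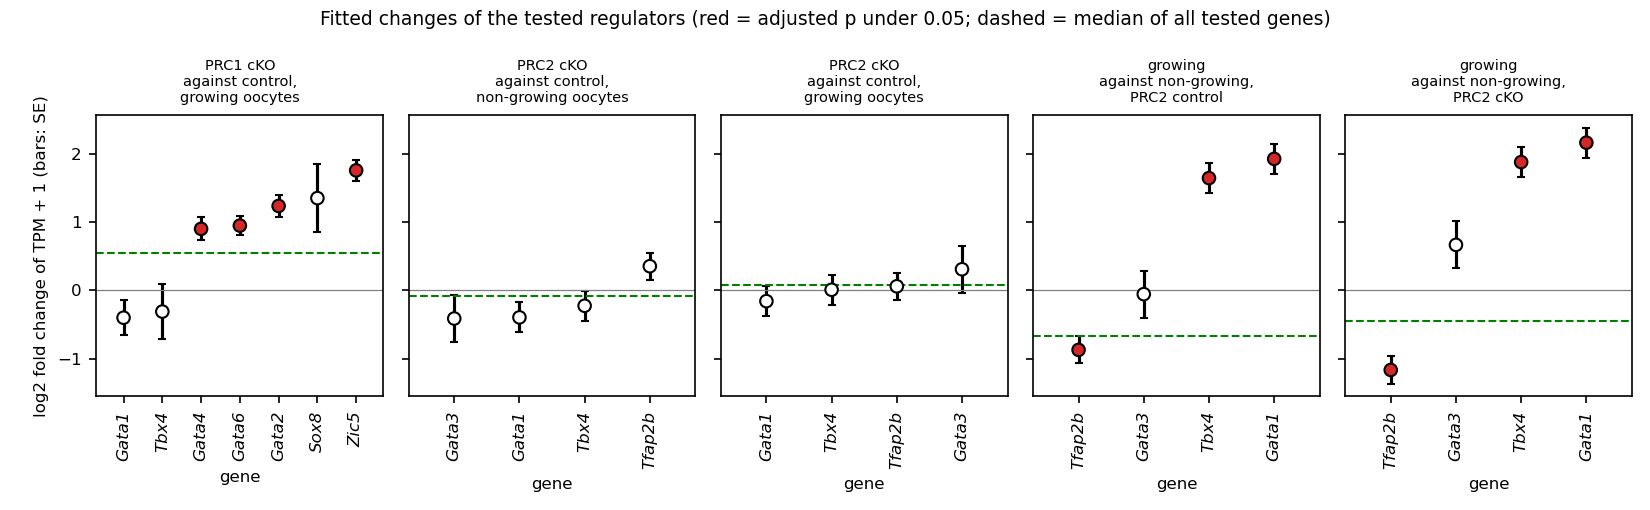
Log2 fold change of TPM + 1 with its SE (limma) for the regulators that could be tested in each comparison; red points passed an adjusted p of 0.05 and dashed lines mark the median of all tested genes. Zic5, Gata2, Gata6 and Gata4 lie above the median of 0.55 in the PRC1 cKO, no regulator passed in either PRC2 cKO comparison, and Gata1 and Tbx4 passed upward and Tfap2b downward with growth.

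Loss of Eed was not accompanied by a called change of any of these regulators. In non-growing oocytes 4 of the 54 could be tested and 0 were called higher or lower by limma, with 0 of the 4 at an unadjusted p under 0.05. Of all 14153 tested genes, 0.113% were called higher and 0.198% lower. Gata1 measured 0.77 and 0.33 TPM in the controls against 0.36 and 0 TPM in the cKO, a change of -0.40 (SE 0.22, limma adjusted p = 0.4). Tbx4 measured 0.99 and 0.99 TPM in the controls against 0.5 and 0.93 TPM in the cKO, a change of -0.23 (SE 0.22, limma adjusted p = 0.62). Both cKO libraries of Tbx4 were lower, by little in 1 of them. Tfap2b measured 1.29 and 0.6 TPM in the controls against 1.54 and 1.36 TPM in the cKO, a change of 0.36 (SE 0.20, limma adjusted p = 0.402). Gata3 measured 0.24 and 1.74 TPM in the controls against 0.35 and 0.42 TPM in the cKO, so the 2 controls lay on either side of the cKO (-0.41, SE 0.35, limma adjusted p = 0.566).

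Growing oocytes gave the same count. Of the 4 regulators tested, 0 were called higher or lower by limma, with 0 at an unadjusted p under 0.05, beside 0.12% and 0.0495% of all tested genes. Gata3 measured 0.72 and 0.83 TPM in the controls against 1.36 and 1.05 TPM in the cKO, a change of 0.31 (SE 0.35, limma adjusted p = 0.751). Gata1 was at 5.05 and 4.65 against 4.18 and 4.3 TPM (-0.16, SE 0.22, limma adjusted p = 0.805). For both genes the groups did not overlap, but the differences were smaller than their SE. Tbx4 was at 5.78 and 4.74 against 4.44 and 6.24 TPM, which overlap (0.01, SE 0.22, limma adjusted p = 0.997). Tfap2b was at 0.06 and 0.03 against 0.13 and 0.05 TPM (0.06, SE 0.20, limma adjusted p = 0.929). The effect of the PRC2 cKO did not differ detectably between the stages for these genes. The difference of the effects was largest for Gata3 (0.72, SE 0.49, limma adjusted p = 0.454), and 0 of 4 were called in either direction (0 at an unadjusted p under 0.05), beside 0.0919% and 0.00707% of all genes. With the filter lowered to 0.1 TPM, 15 regulators were tested and 0 were called at either stage. The shares of all genes were then 0.0911% higher and 0.146% lower in non-growing and 0.0638% higher and 0.0319% lower in growing oocytes. At that setting 0 of the 15 had an unadjusted p under 0.05 in non-growing oocytes and 1 in growing oocytes.

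Low regulators of the PRC2 controls were also counted. Of the 42 at or under 0.1 TPM in both non-growing controls, 0 exceeded 0.1 TPM in both cKO libraries, beside 1.91% of such coding genes. In growing oocytes it was 0 of 44, beside 3.36%, and both counts lie near the background. Single cKO libraries did exceed 0.1 TPM, with Sox18 reaching 0.28 TPM in non-growing and 0.26 TPM in growing oocytes. Without any filter, Gata2, Sox9, Sox18 and Tfap2b were higher in both cKO libraries of non-growing oocytes and Tbx4 and Twist2 were lower, beside 14.3% and 26.1% of all coding genes. Sox9 measured 0.01 and 0 TPM in the controls against 0.08 and 0.09 TPM in the cKO, and Sox18 at 0 and 0 against 0.03 and 0.28 TPM. In growing oocytes 8 were higher (Gata2, Gata3, Sox7, Sox8, Sox17, Meox1, Zic5 and Tfap2a) and 3 lower (Gata1, Eomes and Foxc1), beside 18.8% and 8.5%. Tfap2a measured 0.17 and 0.19 TPM in the controls against 0.5 and 0.35 TPM in the cKO. Gata2 was at 0 and 0.03 against 0.1 and 0.16 TPM, and Zic5 at 0.02 and 0.02 against 0.04 and 0.07 TPM. The members higher in both PRC2 cKO libraries were therefore at or below 1.54 TPM, and for Zic5 the cKO level was 0.07 TPM at most.

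The PRC1 and PRC2 comparisons share no libraries but lie in tables normalized separately. In the PRC2 table the endothelial markers summed to 9.3 and 7.94 TPM in the non-growing controls against 4.85 and 12.6 TPM in the cKO, where Emcn was at 0 and 1.27 TPM. In growing oocytes they summed to 5.18 and 8.27 TPM in the controls against 7.48 and 12.08 TPM in the cKO, with Emcn at 0.54 and 0.35 TPM against 0 and 0 in control. Of the 8 markers, 1 was higher in both non-growing cKO libraries, beside 14.3% of all coding genes. In growing oocytes 4 were higher, beside 18.8%, and 0 were lower at either stage. Pecam1, the 1 that could be tested, was not called in non-growing (-0.31, limma adjusted p = 0.745) or growing oocytes (0.37, limma adjusted p = 0.774). In both stages the cKO library with the larger sum, replicate 2, also held the higher Sox17 and Sox18 values, with Sox17 at 0 and 0.13 TPM in the non-growing and 0.04 and 0.14 TPM in the growing cKO. The part of endothelial RNA in these values was not tested.

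Among the 4 regulators tested in the PRC2 table, 3 changed with growth. Gata1 and Tbx4 rose and Tfap2b fell from non-growing to growing oocytes, in the PRC2 control and again in the PRC2 cKO. In the control, Gata1 (chromosome X, 7959260 to 7978071) went from 0.77 and 0.33 TPM to 5.05 and 4.65 TPM. The log2 fold change was 1.93 (SE 0.22, limma adjusted p = 0.000258). Tbx4 went from 0.99 and 0.99 TPM to 5.78 and 4.74 TPM, a change of 1.65 (SE 0.22, limma adjusted p = 0.000518). Both growing libraries were well above both non-growing libraries for each gene. Tfap2b (chromosome 1, 19208914 to 19238576) went from 1.29 and 0.6 TPM to 0.06 and 0.03 TPM, a change of -0.87 (SE 0.20, limma adjusted p = 0.00653). Gata3 gave no call (-0.06, SE 0.35, limma adjusted p = 0.895). So 2 of 4 tested regulators rose and 1 fell, beside 16.6% and 54% of all tested genes. All 3 reached 1 TPM only at the stage where they were higher, so they had to differ to be tested, and the count says nothing about the 54 as a set.

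In the PRC2 cKO, Gata1 went from 0.36 and 0 TPM to 4.18 and 4.3 TPM, a change of 2.17 (SE 0.22, limma adjusted p = 0.000155). Tbx4 went from 0.5 and 0.93 TPM to 4.44 and 6.24 TPM, a change of 1.88 (SE 0.22, limma adjusted p = 0.000287). Tfap2b went from 1.54 and 1.36 TPM to 0.13 and 0.05 TPM, a change of -1.17 (SE 0.20, limma adjusted p = 0.00181). These are the directions of the control. Gata3 went from 0.35 and 0.42 TPM to 1.36 and 1.05 TPM, a change of 0.67 that did not pass (SE 0.35, limma adjusted p = 0.129). Again 2 of 4 rose and 1 fell, beside 20.1% and 46% of all tested genes, and the same limit of the filter holds for this count. The median change of all genes was -0.67 in the control and -0.45 in the cKO. Trimmed-mean scaling brought these medians to -0.10 and -0.08 and the shares called to 27.7% higher and 30.2% lower in the control and 28.9% and 32.5% in the cKO, and the 3 regulators stayed called in both, with Gata3 also called higher in the cKO.

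The stages were also compared over all 54 genes. Without any filter, Gata1, Gata4, Sox8, Tbx4, Eomes and Foxc1 were higher in both growing control libraries and Gata2, Tbx20, Twist2, Zic5, Tfap2a and Tfap2b were lower, beside 15.2% and 45.7% of all coding genes. In the PRC2 cKO 8 were higher and 5 lower, beside 18.1% and 36.5%. Gata4 was at 0 and 0.1 TPM in non-growing and 0.33 and 0.4 TPM in growing control oocytes, and at 0 and 0 against 0.39 and 0.4 TPM in the cKO. Gata2 was lower with growth, at 0.14 and 0.17 against 0 and 0.03 TPM in the control and 0.19 and 0.4 against 0.1 and 0.16 TPM in the cKO. The groups of neither gene overlapped. With the filter lowered to 0.1 TPM, a setting chosen after seeing the data, Gata4 was called higher in both genotypes (0.38 and 0.48, limma adjusted p = 0.00726 and 0.00271). Foxc1 (0.26, limma adjusted p = 0.0481) was then also called higher and Tfap2a (-0.43, limma adjusted p = 0.0353) lower in the control, and Sox8 was called higher in the cKO (1.00, limma adjusted p = 0.00386). Gata4 and Sox8 would not have passed that filter on the non-growing libraries alone, so nothing is read from their calls. Of all genes at that setting, 12.8% were called higher and 38.3% lower in the control and 15.6% and 32.7% in the cKO. Granulosa markers summed to 4.77 and 5.5 TPM in non-growing and 13.33 and 14.89 TPM in growing control libraries, with Foxl2 at no more than 0.03 TPM in any of them. The markers did not move together. Of the 5 that could be tested, 1 was called higher and 1 lower in the control (limma), beside 16.6% and 54% of all tested genes. The part of granulosa RNA in the values of Gata4 was not tested.

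**Figure D5:**
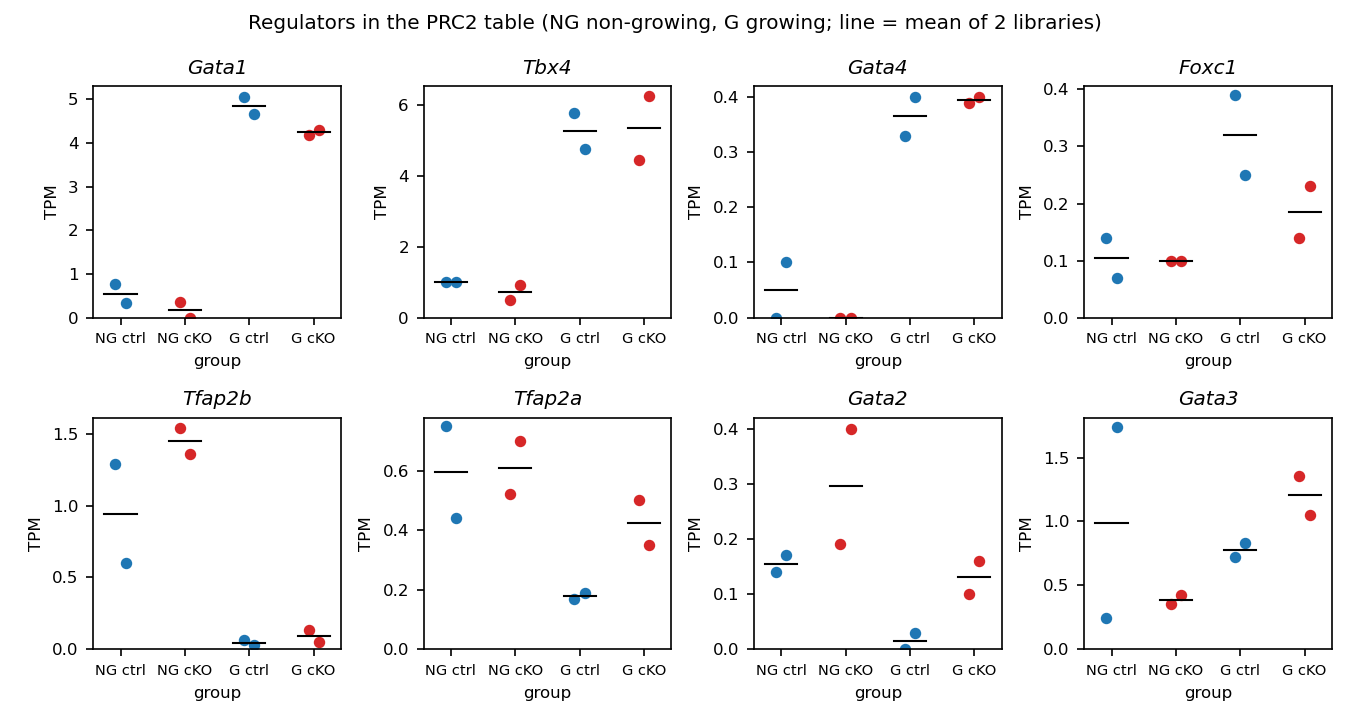
TPM of 8 regulators in the PRC2 table by group (NG non-growing, G growing; points are the 2 libraries, lines their mean; each panel has its own axis from 0). Gata1 and Tbx4 sit at or under 0.99 TPM in non-growing and at or above 4.18 TPM in growing oocytes of both genotypes, and Tfap2b runs the other way.

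The levels in growing control oocytes can be set side by side, though the tables were normalized separately and no test was made across them. Gata1 measured 5.04 and 3.86 TPM in the PRC1 controls and 5.05 and 4.65 TPM in the PRC2 control, and Tbx4 was at 6.44 and 11.28 against 5.78 and 4.74 TPM. In both tables these 2 stood first among the 54 in every growing control library, and in both they exceeded each of the other regulators by more than the spread between libraries. The order of Tbx4 and Gata1 between themselves did not exceed that spread in the PRC2 control. Sox8 measured 0.94 and 1.67 TPM in the PRC1 controls and 0.41 and 0.34 TPM in the PRC2 control.

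Other genes of the same families, 95 in all, gave a mixed picture. In the PRC1 comparison 27 of them were tested, and 11 were called higher and 3 lower by limma, beside the 41.3% and 6.45% of all genes given above. Ascl2, a trophoblast and intestinal stem cell bHLH factor, rose from 0.53 and 1.86 TPM to 28.44 and 17.52 TPM (3.48, limma adjusted p = 0.00392). Sox4 rose from 0.1 and 0.39 TPM to 5.33 and 3.95 TPM (2.18, limma adjusted p = 0.00327). In the PRC1 cKO libraries, both measured more TPM than each of the 4 regulators called in that comparison. Atoh8 rose from 0 and 0.05 TPM to 2.58 and 1.32 TPM (1.49, limma adjusted p = 0.00817). Sox4 and Atoh8 reached 1 TPM in the PRC1 cKO libraries alone, so they had to differ to be tested, and nothing is read from a count that includes such genes. The germ cell bHLH factors Sohlh1 and Sohlh2, which act in early oocyte differentiation, also rose. Sohlh1 went from 89.97 and 157.13 TPM to 986.23 and 597.76 TPM (2.68, limma adjusted p = 0.00505), and Sohlh2 from 29.08 and 42.7 TPM to 121.66 and 92.62 TPM (1.56, limma adjusted p = 0.00745). Foxj3 fell from 65.84 and 60.1 TPM to 28.73 and 26.86 TPM (-1.15, limma adjusted p = 0.00482). In the PRC2 cKO, 0 of 24 tested family genes were called at either stage by limma. An unadjusted limma p under 0.05 was held by 8 in non-growing and 3 in growing oocytes, beside 2316 and 1407 of 14153 tested genes.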

How the data were processed

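RNA-seq of 12 mouse oocyte libraries was used, grouped by the sample titles. The TPM values were deposited by the authors in 2 tables, 1 of 4 PRC1 libraries (55401 gene models) and 1 of 8 PRC2 libraries (55385). Per the labels' protocols, RNA was extracted with RNeasy Plus Micro and libraries were prepared with NEBNext Single Cell/Low Input reagents and read in pairs of 150 bases on an Illumina HiSeq. Per the submitters' processing notes, the build was GRCm38 (mm10) and the tools included RSEM 1.3.3, Subread 2.0.3, HISAT2, SAMtools and Trim Galore 0.6.10. No source used here states which of them gave the TPM or whether strand was used. Because TPM keeps no depth, no count test was possible, and no interval is given for a single value. A fixed sum also means that a change in abundant genes shifts all others. Protein-coding genes held 60.6% and 63.4% of the TPM in the PRC1 controls and 76% and 71.3% in the PRC1 cKO. In the PRC2 control they held 87.7% and 88.2% in non-growing and 61.6% and 62.3% in growing libraries.

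Members were matched by symbol. Gene classes came from GENCODE release M 21. Values were fitted as log2(TPM + 1) with limma 3.58.1 in R 4.3.3 (eBayes with trend, two-sided), with all groups of a table in 1 fit, for genes at 1 TPM or more in at least 2 libraries and with Benjamini-Hochberg adjustment over all tested genes. The fit was tested on simulated data. Comparisons were made only within a table. Named genes were all called members, the best uncalled member of each class, the 2 highest members of each class and up to 6 called genes of the same families. Others are named with values after these were seen. Members and lists were chosen with earlier results of these data known.

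Alternatives were pseudocounts of 0.1 and 5, no filter, a mean of 1 TPM, quantile, trimmed-mean (30% of ratios, 5% of levels) and coding-gene scaling, robust or trendless eBayes, a block for replicate number, leaving out each library, only the 2 groups compared, and a 2-fold minimum. A 0.1 TPM filter, alone or with a pseudocount of 0.1, and a crossed replicate block were added after seeing the data.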

Additional observations from a re-analysis of the deposited data

How the results depend on the processing

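The number of members called higher in the PRC1 cKO (4) was 12 with no filter, 6 with coding-gene scaling, 13 with the 0.1 TPM filter, 17 with that filter and a pseudocount of 0.1, 2 with a mean of 1 TPM, 2 with a 2-fold minimum and 1 under quantile normalization. The number called lower (0) was 1 under quantile normalization and 1 under trimmed-mean scaling, which is Gata1 both times. With 1 library left out, the number higher ran from 2 (without PRC1 control replicate 1) to 5. With growth in the PRC2 control, the number higher (2) was 4 with no filter and 4 with the 0.1 TPM filter. The number lower (1) was 2, 2 and 3 with no filter, the 0.1 TPM filter and that filter with a pseudocount of 0.1, and 0 with a mean of 1 TPM or a 2-fold minimum. It was 1 to 2 with 1 library left out, 2 being the value without PRC2 control non-growing replicate 1. With growth in the PRC2 cKO, the number higher (2) was 4 with no filter, coding-gene scaling, the 0.1 TPM filter and that filter with a pseudocount of 0.1, and the number lower (1) was 0 with a mean of 1 TPM. Left-out libraries gave 2 to 3 higher. The members called in the PRC2 cKO comparisons and in their difference numbered 0 under every alternative.

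Quantile normalization reversed Gata6 (-0.019) and Gata4 (-0.06) in the PRC1 comparison and Tbx4 (-0.16) and Tfap2b (-0.023) in PRC2 growing oocytes. Tbx4 in the latter was also -0.13 under trimmed-mean scaling and ran from -0.20 to 0.215 with a replicate left out, and in the PRC1 comparison it ran from -0.73 to 0.11, positive without replicate 2 of either group. The cause was not tested. The mean number of members detected, at 1 TPM 2.5 in PRC1 control and 8 in PRC1 cKO, was 3.5 and 13 at 0.5 TPM and 1.5 and 1 at 5 TPM. In PRC2 control and cKO non-growing oocytes it was 1 and 1 at 1 TPM, 3.5 and 3 at 0.5 TPM, and 0 and 0 at 5 TPM. In growing oocytes it was 2 and 3.5 at 1 TPM, 3 and 4.5 at 0.5 TPM, and 1 and 0.5 at 5 TPM.

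Whether replicate numbers pair the samples cannot be settled with 2 libraries per group. Deviations of same-numbered libraries correlated at -0.27 in the PRC1 table and at -0.03 to 0.26 in the PRC2 table. With the replicate block 4 members were called higher and 0 lower in the PRC1 comparison, and no count of members changed in the others. With the crossed block 5 members were called higher in the PRC1 comparison, Sox8 being the addition. Depth is unknown, so levels under 0.1 TPM may rest on few reads.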

Other observations

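Several of the regulators lie beside or within other gene models whose levels can be read with theirs. The transcript 2610035F20Rik, within 5 kb of both Zic2 and Zic5, had a value of 0 in each PRC1 control and in all 8 libraries of the PRC2 table. In the PRC1 cKO it measured 1.5 and 1.54 TPM. Zic5 was thus measured at 2.59 and 2.36 TPM beside a second transcript seen in the same 2 libraries, while Zic2, 9.8 kb away, was at 0.07 and 0.05 TPM. Wt1os, the antisense neighbour of Wt1, measured 0 and 0 TPM in the PRC1 controls against 0.28 and 1.14 TPM in the PRC1 cKO, with its higher value in the library where Wt1 was lower (0.68 and 0.18 TPM). Tbx3os1, antisense to Tbx3, was the reverse, at 23.65 and 22.86 TPM in the control and 8.36 and 11.54 TPM in the cKO, while Tbx3 itself overlapped between groups. Without strand, the reads of overlapping genes cannot be told apart.

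Neighbouring members did not always share a level. Tbx2 lies 44.5 kb from Tbx4 on chromosome 11, and in the PRC1 control it was listed at 0 while Tbx4 was at 6.44 and 11.28 TPM. Olig1 was at 0.36 and 0.18 TPM in the PRC1 cKO and Olig2, 41.1 kb away, was listed at 0. Foxf2 and Foxc1, 175.2 kb apart on chromosome 13, stood in opposite order, with Foxf2 at 0 and 0 TPM in the control and 0.1 and 0.04 TPM in the cKO, and Foxc1 at 0.33 and 0.34 against 0.1 and 0.15 TPM. Zic1 overlaps Zic4 on chromosome 9, and Zic1 was listed at 0 where Zic4 was at 0.02 and 0.05 TPM. Fam241b, which overlaps Neurog3 on the other strand, measured 180.95 and 187.08 TPM in the PRC1 controls, while Neurog3 was at 0.03 and 0 TPM.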
